A study of Mus musculus with 2 samples.

Results

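The genes described here encode the translation initiation factors of the mouse and the proteins named after them. They are the autosomal protein-coding genes of the mm10 annotation whose symbol starts with Eif1, Eif2, Eif3, Eif4, Eif5 or Eif6, which gave 53 genes out of 20364 autosomal protein-coding genes with a known strand. The measurement was ChIP-seq (chromatin immunoprecipitation followed by sequencing) with an antibody against TCF12 in CH12.LX, an immortalized female B-cell lymphoma line from the mouse strain B10.H-2aH-4bp/Wts. There was 1 group of 2 biological replicates, with no treated, mutant or differently stained counterpart, and all values come from this single line. The authors' optimal list, which keeps peaks whose ranks repeat between replicates by the irreproducible discovery rate (IDR), held 35848 peaks on mm10 and is the basis of all values unless another list is named. A gene was counted as carrying a peak when a summit, the highest point of a peak, lay within 5 kb of its annotated 5' end. The signal is the height that the authors' peak caller gave each peak, in its own units. Read depth is unknown, and peak lists hold no expression, so neither the transcript levels of these genes nor the identity of the line could be checked here.

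Translation initiation brings the initiator tRNA and the small ribosomal subunit to the start codon of an mRNA. eIF2 delivers the initiator tRNA, eIF3 is the large scaffold on the small subunit, eIF4F binds the mRNA cap and unwinds the leader, and eIF1, eIF1A, eIF5 and eIF5B select the start codon and join the subunits. Lymphocytes raise protein synthesis strongly when they are activated, and the step is throttled by kinases that phosphorylate eIF2 and by proteins that sequester eIF4E. TCF12 is an E protein, a helix-loop-helix factor that recognises the E-box CANNTG, most often as CAGCTG or CACCTG.

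The 4 genes with the highest signal were Eif2b5, Eif5, Eif2b1 and Eif4e2, and none of the 4 held CAGCTG or CACCTG within 50 bp of its mm9 summit. They are shown to let the summit sequence be compared with that of the genes that did hold an E-box. The lines below come from the mm9 genome, the build of the authors' separate mm9 peak list, and are written 5' to 3' in the direction of the gene. Capitals mark the E-boxes CAGCTG and CACCTG (read as CAGGTG on the other strand), the E-box CACGTG and the ETS-type site CCGGAAGT. Eif5 and Eif4e2 show 50 bp to either side of the summit, while Eif2b5 and Eif2b1, whose summits lie inside transcribed sequence, show 30 bases around it.
Eif2b5, chr16:20498952-20498981, plus strand: tgacttcccggcggacgtgctggctgcgaa
Eif5, chr12:112776108-112776208, plus strand: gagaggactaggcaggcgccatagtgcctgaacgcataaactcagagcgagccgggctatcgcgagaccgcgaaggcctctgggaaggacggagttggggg
Eif2b1, chr5:125029092-125029121, minus strand: cgcacgccggagacgacggaactgacgcgc
Eif4e2, chr1:89110400-89110500, plus strand: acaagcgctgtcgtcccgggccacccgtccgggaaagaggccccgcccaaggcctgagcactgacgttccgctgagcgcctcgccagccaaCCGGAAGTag

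In all, 3 genes had CAGCTG or CACCTG within 50 bp of the summit of their strongest mm9 promoter peak, and all 3 are shown for that reason. Eif4ebp1, which encodes an inhibitor of eIF4E, held CAGCTG 4 bp from the summit, at bases 28370714 to 28370719. Eif2d, which encodes a factor of non-canonical initiation and ribosome recycling, held CACCTG 2 bp from the summit, at bases 133049757 to 133049762. Eif4g2, which encodes an eIF4G relative that lacks the eIF4E-binding region, held it 26 bp away, read as CAGGTG in the direction of the gene, at bases 118226473 to 118226478. For Eif2d and Eif4g2 only 30 bases around the E-box are printed.
Eif4ebp1, chr8:28370673-28370773, plus strand: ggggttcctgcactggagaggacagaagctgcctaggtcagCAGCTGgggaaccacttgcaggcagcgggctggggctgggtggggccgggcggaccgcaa
Eif2d, chr1:133049745-133049774, plus strand: cccgcccctcccCACCTGgcgctgcgtcag
Eif4g2, chr7:118226461-118226490, minus strand: ggcggcgggtacCAGGTGgcggctgcagca

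Of the 53 genes, 45 (84.9%; 95% Wilson interval 72.9 to 92.1, counting error only) carried an optimal summit within 5 kb of the 5' end, where 48.8% of all autosomal protein-coding genes did. Within 1 kb, 42 of the 53 genes had a summit, against 41.6% of all genes. The strongest peaks had a median signal of 77.7 (quartiles 50.8 and 102), against a median of 56.3 (37.6 and 83.4) over all genes with a summit. A signal of 100 or more was reached at 12 of the 53 genes, against 7.75% of all genes. These are counts over genes within 1 set of libraries, and no test of the difference was made because the genes were chosen with results of these data known.

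**Figure D1:**
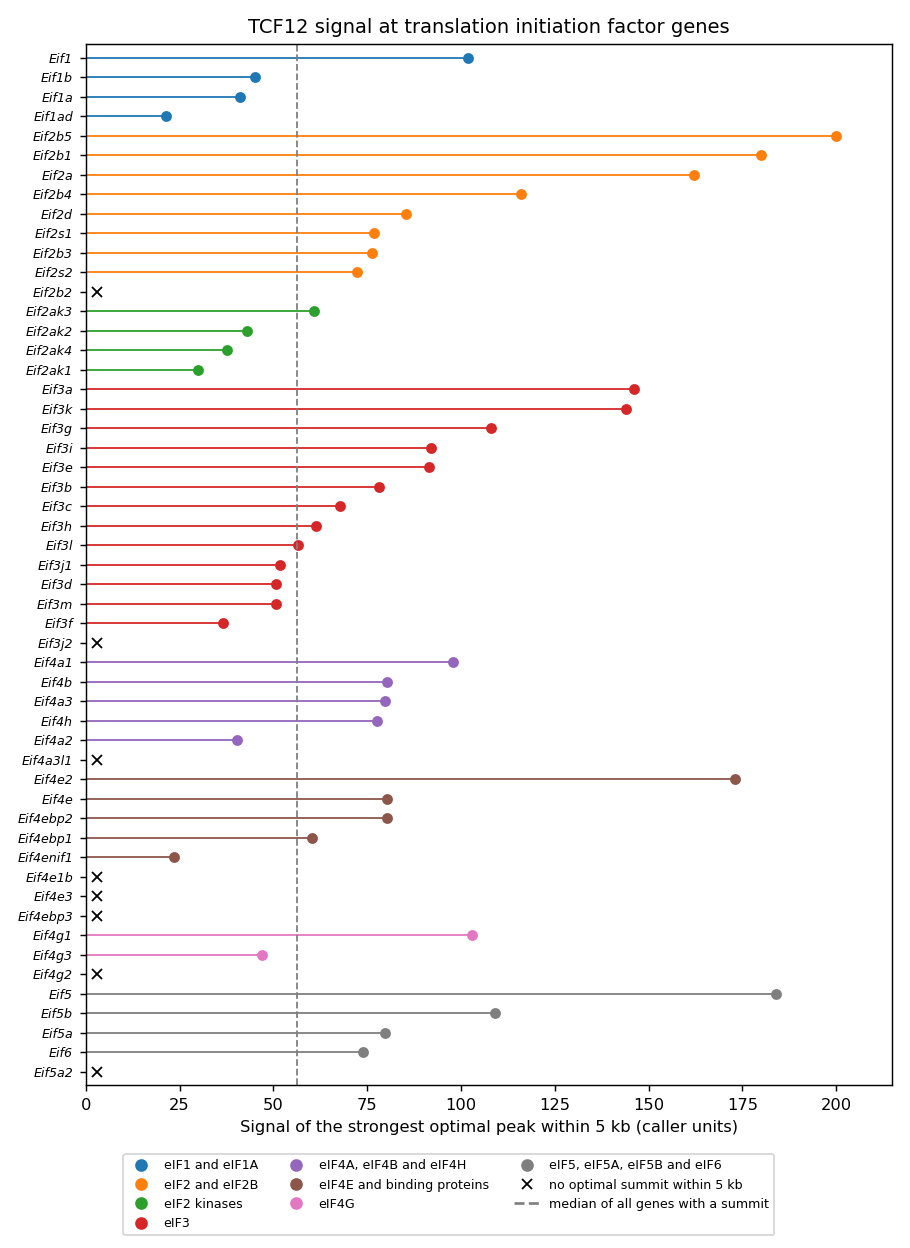
Signal of the strongest optimal TCF12 peak within 5 kb of the 5' end (horizontal axis, caller units) for each of the 53 initiation factor genes (vertical axis), coloured by role; crosses mark the 8 genes with no optimal summit, and the dashed line is the median of 56.3 over all genes with a summit. The genes of eIF2 and eIF2B with an optimal summit run from 72.2 to 200, and those of the eIF2 kinases from 29.9 to 60.7.

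The genes for eIF2 and for eIF2B, the exchange factor that recharges eIF2 with GTP, had the highest median signal of the 8 roles. With Eif2a and Eif2d, the group has 9 genes, of which 8 had a summit, with a median strongest signal of 101, and 7 of the 8 strongest summits lay within 100 bp of the 5' end. Eif2b5, the catalytic subunit of eIF2B, had a signal of 113 in replicate 1 and 81.6 in replicate 2. The pooled signal was 200, which 1.28% of optimal peaks exceeded, on mm10 chr16:20498798-20499014, with the summit 101 bp downstream of the 5' end. It was the highest value of any initiation factor gene.

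Eif2b1, the alpha subunit of eIF2B, had 113 in replicate 1 and 66.9 in replicate 2, with a pooled signal of 180 on chr5:124578992-124579191. Its 5' end lies 17 bp from that of Gtf2h3, a gene of the general transcription factor TFIIH on the opposite strand, so the 14 bp between summit and 5' end do not assign the peak to either gene. Eif2a, which encodes an alternative carrier of the initiator tRNA, had 118 in replicate 1 and 49.4 in replicate 2, with 162 pooled on chr3:58525665-58525891. It shares its promoter region with Serp1, whose 5' end on the other strand is 63 bp away. Eif2b4, the delta subunit, had 61.1 in replicate 1 and 52.4 in replicate 2, with 116 pooled on chr5:31192995-31193378, and Snx17 starts 123 bp from it on the opposite strand.

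The genes of eIF2 itself lay lower and close together. Eif2s1, the alpha subunit that the stress kinases phosphorylate, had 39.4 in replicate 1 and 36 in replicate 2, and its pooled signal was 76.7 on chr12:78861874-78862257 with the summit 6 bp upstream. A second summit of 13.9, 199 bp downstream on chr12:78862079-78862462, overlaps the first peak and has the same replicate peaks. Atp6v1d starts 64 bp from Eif2s1 on the opposite strand. Eif2s2, the beta subunit, had 38.8 in replicate 1 and 31.7 in replicate 2, and its pooled signal was 72.2. Eif2b3 and Eif2d had pooled signals of 76.4 and 85.3. Eif2b2, the beta subunit of eIF2B, was the only gene of the group without an optimal summit.

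All 4 eIF2 kinase genes carried a summit within 100 bp downstream of the 5' end, but with low signals. The median was 40.3, below the median of 56.3 over all genes with a summit. Eif2ak3 (PERK, which senses stress of the endoplasmic reticulum) had 45.2 in replicate 1 and 21.5 in replicate 2, with 60.7 pooled on chr6:70844378-70844761, 86 bp downstream. It had further summits of 25.5 (27.5 in replicate 1 and 4.53 in replicate 2) at 408 bp upstream on chr6:70843884-70844267 and of 21.1 (16 in replicate 1 and 3.42 in replicate 2) at 2195 bp upstream on chr6:70842097-70842480. Both upstream summits were several times higher in replicate 1. Eif2ak2 (PKR, which senses double-stranded RNA) had 32.4 in replicate 1 and 9.32 in replicate 2, with 43.0 pooled. Eif2ak4 (GCN2, which senses uncharged tRNA) had 28 in replicate 1 and 8.83 in replicate 2, with 37.6 pooled on chr2:118388459-118388842, 68 bp downstream. Its further summits of 20.8 and 11.4 lay 1697 and 1911 bp downstream, on chr2:118390088-118390471 and chr2:118390302-118390685, and share 15.1 in replicate 1 and 7.77 in replicate 2. Eif2ak1 (HRI, which senses lack of haem) had 17.1 in replicate 1 and 17.4 in replicate 2, with 29.9 pooled. The highest pooled value of the kinases, 60.7, lay under the lowest of the 8 eIF2 and eIF2B genes with a summit, 72.2. In replicate 1 alone the groups overlapped, since Eif2ak3 at 45.2 exceeded Eif2s1, Eif2s2 and Eif2b3. In replicate 2 these 8 genes, at 31.7 to 81.6, did not overlap the kinases, at 8.83 to 21.5. Eif2b2, of the same group but without an optimal summit, had relaxed peaks of 15.6 in replicate 1 and 10.7 in replicate 2. With Eif2b2 included, the groups overlapped in replicate 2 as well. Its pooled relaxed peak had 25.7.

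Among the eIF3 genes, 13 of 14 had a summit within 5 kb, all 13 also within 1 kb. The strongest signals ran from 36.6 at Eif3f to 146 at Eif3a, with a median of 67.8. For 11 of the 13 the strongest summit lay upstream of the 5' end, against 42.0% of all genes with a summit. Eif3a, the core subunit that spans the complex, had 76.4 in replicate 1 and 69.5 in replicate 2, with 146 pooled on chr19:60790634-60790762 and the summit 29 bp upstream. A second summit of 24.8 lay 634 bp downstream on chr19:60789867-60790250, with 13.9 in replicate 1 and 9.89 in replicate 2. Eif3g, which contacts the mRNA entry side of the ribosome, had 62.2 in replicate 1 and 47.0 in replicate 2, with 108 pooled on chr9:20898446-20898829.

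Eif3k had 3 summits of unlike strength. The strongest, with 144 pooled from 85.2 in replicate 1 and 58.8 in replicate 2, lay 865 bp upstream on chr7:28982711-28982827 and was nearer to the 5' end of Map4k1, a kinase gene of lymphocytes, at 705 bp. At the 5' end of Eif3k itself a summit 47 bp downstream on chr7:28981651-28982034 had a pooled signal of 41.9, with 11.1 in replicate 1 and 35.7 in replicate 2. Replicate 2 was the higher there, unlike at most peaks. The remaining summit, 1598 bp upstream on chr7:28983296-28983679, had 37.7, from 23.1 in replicate 1 and 13.3 in replicate 2.

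Eif3b had its strongest summit, with 78.1, at 574 bp upstream on chr5:140418539-140418922 and a second, with 61.5, at 28 bp downstream on chr5:140419141-140419524. The upstream summit had 61.1 in replicate 1 and 16.6 in replicate 2, while the one at the 5' end had 30.5 in replicate 1 and 35.9 in replicate 2. Eif3l likewise had 56.5 at 3959 bp upstream on chr15:79071072-79071455, from 39.2 in replicate 1 and 14.1 in replicate 2, and 47.4 at 66 bp upstream on chr15:79074965-79075348, from 27.5 in replicate 1 and 20.4 in replicate 2. In both genes the distant summit was the higher in replicate 1 and the one at the 5' end the higher in replicate 2.

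Eif3i had 91.9 pooled, 40.6 in replicate 1 and 52.4 in replicate 2, on chr4:129600464-129600847, 8 bp upstream, and its 5' end lies 21 bp from that of Tmem234 on the opposite strand. Its second summit, of 32.5 at 3705 bp downstream on chr4:129596751-129597134, had 28 in replicate 1 and 3.8 in replicate 2, so the replicates ranked the summits alike but differed most at the weaker one. Eif3d had 50.8 pooled, 23.2 in replicate 1 and 25.8 in replicate 2, at 44 bp downstream on chr15:77970681-77970867, and a summit of 23.8 at 323 bp upstream on chr15:77970955-77971338 that draws on the same replicate peaks. Eif3f, the lowest of the 13, had 36.6 pooled, 23.4 in replicate 1 and 13.6 in replicate 2, at 129 bp upstream on chr7:108934094-108934477, and 16.4 at 91 bp downstream on chr7:108934314-108934697 from the same replicate peaks. The 6 genes with 1 summit were Eif3g, given above with 108, Eif3e with 91.6, Eif3c with 67.8, Eif3h with 61.4, Eif3j1 with 51.8 and Eif3m with 50.8.

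The genes of eIF4F, the cap-binding complex, and its partners were mixed. Eif4g1, the main scaffold subunit, had 60.1 in replicate 1 and 43.0 in replicate 2, with 103 pooled on chr16:20672558-20672941, 30 bp downstream of the 5' end. Eif4e, which encodes the cap-binding subunit, had 3 summits. The strongest, 80.2 pooled on chr3:138527100-138527483 with 39.3 in replicate 1 and 46.8 in replicate 2, lay 1101 bp downstream of the outer 5' end but 24 bp from a second start of the gene in RefSeq. The summit at 1833 bp on chr3:138527832-138528215 had 48.5, from 38.8 in replicate 1 and 11.4 in replicate 2. The one at 175 bp from the outer end, on chr3:138526174-138526557 with a score of 920, had 38, from 28.6 in replicate 1 and 13.6 in replicate 2. Eif4g3 showed the same arrangement, with a single summit of 46.9 at 1697 bp from the outer end and 20 bp from another RefSeq start.

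Eif4a1, the main helicase subunit, had 4 summits. The strongest had 97.9 pooled, 58.1 in replicate 1 and 39.5 in replicate 2, at 85 bp downstream, on chr11:69672253-69672348, and the next had 90.6 at 987 bp downstream on chr11:69671244-69671627, from 47.3 in replicate 1 and 39.4 in replicate 2. The other 2, of 52.5 at 126 bp upstream on chr11:69672357-69672740 and of 24.9 at 788 bp downstream on chr11:69671443-69671826, take their replicate values from those same peaks. The related helicase gene Eif4a3, which acts in the exon junction complex, had 79.8 pooled, 50.3 in replicate 1 and 34.2 in replicate 2, at 30 bp downstream on chr11:119299821-119300204, and an overlapping summit of 10.1 at 170 bp upstream on chr11:119300021-119300404. Eif4b and Eif4h encode proteins that stimulate the helicase. Eif4b had 80.2 pooled, 48.5 in replicate 1 and 36.4 in replicate 2, at 154 bp downstream on chr15:102073735-102074118. Its 3 further summits lay 4021 to 4565 bp upstream with 8.26 to 28.4, between chr15:102069016-102069399 and chr15:102069560-102069943, at 9.9 to 19.1 in replicate 1 and 5.51 to 7.5 in replicate 2. Eif4h had 77.7 pooled, 36 in replicate 1 and 45.7 in replicate 2, at 34 bp downstream on chr5:134639183-134639566, and 17.8 at 170 bp upstream on chr5:134639387-134639770 from the same replicate peaks. The strongest peaks of these 4 genes thus lay between 77.7 and 97.9. Eif4a2, the second helicase paralogue, differed from them on mm10, with 1 summit of 40.2 at 4535 bp upstream.

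Among the eIF4E relatives and binding proteins, Eif4e2, a cap-binding protein that represses translation, stood highest. It had 111 in replicate 1 and 63.9 in replicate 2, with 173 pooled on chr1:87213779-87214001, 14 bp upstream, and a second summit of 19.6 at 2295 bp upstream on chr1:87211424-87211807, with 12.8 in replicate 1 and 9.38 in replicate 2. Eif4ebp2 and Eif4ebp1 encode inhibitors that mTORC1 releases from eIF4E. Eif4ebp2 had 80.2 pooled, 40.5 in replicate 1 and 42.2 in replicate 2, at 9 bp downstream on chr10:61452589-61452972, and 32.5 at 4656 bp downstream on chr10:61447942-61448325, with 23.8 in replicate 1 and 5.89 in replicate 2. Eif4ebp1 had 5 summits, the most of any initiation factor gene, between 110 bp upstream and 1253 bp downstream, in overlapping peaks that form 2 regions. The first region, from chr8:27260025-27260408 to chr8:27260230-27260613, had summits of 60.2 and 25.7, with 39.7 in replicate 1 and 19.8 in replicate 2. The other, from chr8:27260938-27261321 to chr8:27261388-27261771, had 10.8, 20.2 and 12.1, with 14.8 in replicate 1 and 5.16 to 5.4 in replicate 2. Eif4enif1, which encodes the carrier of eIF4E into the nucleus, had only a peak of 23.5 with an IDR score of 660, 4658 bp downstream, and nearer to the 5' end of Sfi1.

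Of the 5 genes for eIF5, eIF5A, eIF5B and eIF6, 4 had a summit, with signals from 73.8 to 184, and 2 of them reached 100. Eif5, the activator of GTP hydrolysis on eIF2, had 104 in replicate 1 and 78.3 in replicate 2, with 184 pooled on chr12:111537814-111538042, 153 bp upstream, and a second summit of 55.2 at 2135 bp upstream on chr12:111535774-111536157, with 33.2 in replicate 1 and 21.1 in replicate 2. Eif5b, which joins the ribosomal subunits, had 58.0 in replicate 1 and 51.1 in replicate 2, with 109 pooled on chr1:37997987-37998173, 72 bp downstream. Its second summit, of 35.7 on chr1:37997027-37997410 with 15.9 in replicate 1 and 29.7 in replicate 2, was 75 bp from the 5' end of Txndc9 on the opposite strand. Eif5a, whose hypusine-bearing product acts mainly in elongation, had 3 summits of 79.7, 71.3 and 70.9 at 147, 667 and 2071 bp downstream, within a gene that has 6 starts in RefSeq. They lie on chr11:69921619-69922002, chr11:69921099-69921482 and chr11:69919695-69920078. The first had 63.7 in replicate 1 and 18.5 in replicate 2, the next 42.9 in replicate 1 and 47.2 in replicate 2, and the last 37.6 in replicate 1 and 41.1 in replicate 2. Eif6, which keeps the ribosomal subunits apart, had 73.8.

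The genes of eIF1 and eIF1A, which guard the fidelity of start codon choice, all carried at least 2 summits. Eif1 had its strongest, of 102 pooled, 60.9 in replicate 1 and 44.3 in replicate 2, at 501 bp downstream on chr11:100320258-100320641, and another of 60.5 at 234 bp upstream on chr11:100319523-100319906, with 39.6 in replicate 1 and 21.6 in replicate 2. Its paralogue Eif1b had 45.1 pooled, 32.1 in replicate 1 and 15 in replicate 2, at 67 bp upstream on chr9:120492347-120492730, and 20.7 at 4252 bp downstream on chr9:120496666-120497049, with 11.3 in replicate 1 and 8.43 in replicate 2. Eif1a had 41.1 pooled, 20.3 in replicate 1 and 25.9 in replicate 2, at 9 bp upstream on chr18:46597503-46597886, and 13.4 at 637 bp downstream on chr18:46598149-46598532, where replicate 1 had 15.3 and replicate 2 had no peak. Tmed7 starts 169 bp from Eif1a on the opposite strand. Eif1ad, which encodes a nuclear protein with an eIF1A-like domain, had the lowest strongest signal of all 45 genes, 21.4 with a score of 762 on chr19:5366719-5367102, from 16.1 in replicate 1 and 8.33 in replicate 2. That summit lay 98 bp downstream of its own 5' end and 35 bp from that of Banf1. Its second summit, of 16.5 at 337 bp upstream on chr19:5366284-5366667, had 21.4 in replicate 1 and no peak in replicate 2.

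The IDR score was 1000, its maximum, at 43 of the 45 strongest peaks, all but those of Eif4enif1 and Eif1ad. The share of all genes that reached 1000 is not given here. At a score of at least 830, which 24288 of the 35848 optimal peaks had, 44 of the 53 genes kept a summit, against 43.1% of all genes. The further summits had scores from 580, at Eif1a, to 1000. The strongest summit was within 100 bp of the 5' end at 28 of the 45 genes (62.2%), against 42.2% of all genes with a summit, and the median distance was 67 bp, against 149 bp. It lay upstream at 21 of the 45, against 42.0% of all genes with a summit. Of 38 of these genes with starts in the RefSeq promoter table, 25 had the strongest summit within 100 bp of one of them. For those starts no share over all genes is given, and the 42.2% above is for annotated 5' ends. The 2 genes whose only summit lay nearest to the 5 kb limit were Eif4enif1 at 4658 bp and Eif4a2 at 4535 bp, and the first outside it was Eif4ebp3, with a peak of 59.8 at 6210 bp downstream. At least 2 summits were found at 25 of the 53 genes, against 22.6% of all genes. With overlapping peaks merged the numbers were 21 genes and 16.7%.

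**Figure D2:**
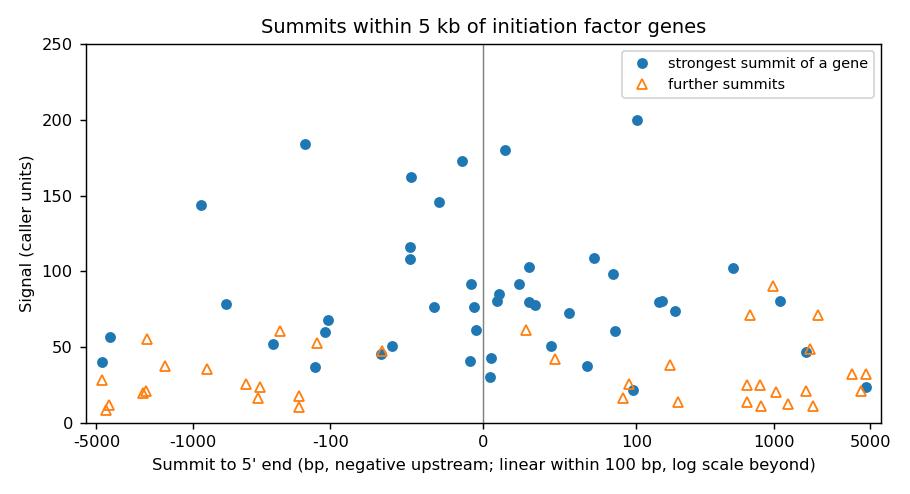
Distance of each of the 82 optimal summits from the 5' end of its gene (horizontal axis, bp, negative upstream, linear within 100 bp and logarithmic beyond) against signal (vertical axis, caller units). Filled circles are the strongest summit of each of the 45 genes and open triangles the further ones; every value of 109 or more lies within 153 bp of a 5' end except the 144 of Eif3k at 865 bp upstream.

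All 45 strongest peaks were found in both replicates, as were 34817 of all 35848 optimal peaks. The optimal list was itself made from both replicates, so this is no separate support for the peaks. At the 45, replicate 1 ran from 15.3 to 118 (median 42.6) and replicate 2 from 7.6 to 81.6 (median 34.2). Replicate 1 was higher at 37 of the 45, and at 85.7% of all optimal peaks found in both. The median ratio of replicate 1 to replicate 2 was 1.37 (quartiles 1.10 and 1.93), against 1.66 (1.21 and 2.34) over all those peaks. The signal has no stated scaling to depth, so the ratio is not a difference in binding. Eif2ak2, Eif2ak4, Eif3b, Eif3j1 and Eif5a had ratios above 3, and Eif3i had the lowest, at 0.776. With as many of the strongest peaks of a single replicate as the optimal list holds, 46 of the 53 genes had a summit in replicate 1 and 45 in replicate 2. Of all genes, 49.7% had one in replicate 1 and 49.9% in replicate 2.

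**Figure D3:**
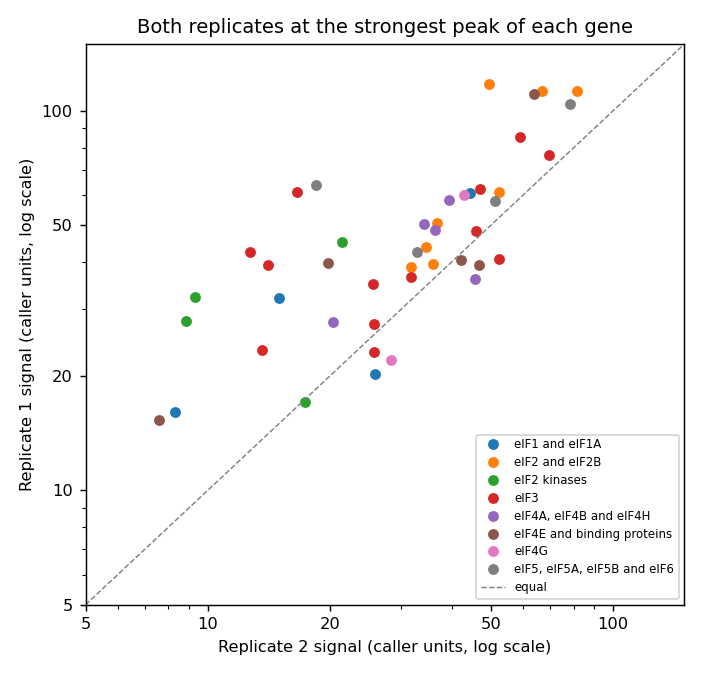
Signal of replicate 1 (vertical axis) against replicate 2 (horizontal axis, both in caller units on log scales) at the strongest optimal peak of each of 45 initiation factor genes, coloured by role; the dashed line marks equal values. At 37 genes the point lies above the line, and replicate 1 was higher at 85.7% of all optimal peaks found in both. The highest ratio is 3.68, at Eif3b.

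No optimal summit lay within 5 kb of 8 genes: Eif2b2, Eif3j2, Eif4a3l1, Eif4e1b, Eif4e3, Eif4ebp3, Eif4g2 and Eif5a2. Most of them are paralogues of genes that did carry one, among them Eif4e1b, known from oocytes, and Eif5a2, the second eIF5A gene. Their relaxed peaks, which include background, were weak. Eif4e3 had 8.97 in the pooled relaxed list, Eif4ebp3 had 7.14, Eif3j2 had 7.13 and Eif5a2 had 6.62, at ranks from 103517 to 200927 of 300000, and Eif4a3l1 and Eif4e1b had no peak in that list within 5 kb. Eif2b2 differed from these, since it had a pooled relaxed peak of 25.7 (15.6 in replicate 1 and 10.7 in replicate 2) 59 bp from its 5' end, and it is in the authors' conservative list though not in the optimal one.

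Eif4g2 and Eif4a2 had promoter peaks on mm9 but not on mm10. On mm9, Eif4g2 had a peak with a signal of 112 at chr7:118226427-118226603, 40 bp from its 5' end, which 16.1% of mm9 peaks exceeded. Eif4a2 had peaks of 146 and 132 at 102 and 320 bp from its 5' end, on mm9 chr16:23107319-23107608 and chr16:23107701-23107990. On mm10 there was no peak at either start, even among the relaxed ones. The nearest pooled relaxed summits were 7837 bp upstream and 23793 bp downstream of Eif4g2, and 3065 bp upstream and 15482 bp downstream of Eif4a2, and in the single replicates the gaps ran from 9560 to 15727 bp upstream and 23749 to 29817 bp downstream of Eif4g2, and from 3117 to 3365 bp upstream and 18305 to 20273 bp downstream of Eif4a2. Of 1782 genes with an mm9 peak of at least 100 within 1 kb, 21 (1.18%) had no pooled relaxed peak within 5 kb on mm10, Eif4g2 among them. For Eif4g2 and Eif4a2 the lack of a promoter peak on mm10 is therefore a statement about those lists, and why they differ was not tested. The signals of the mm9 and mm10 lists are not on one scale.

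Sequence features were counted in 2 ways. Of the 40 genes with an mm9 promoter peak, 3 (7.5%) held CAGCTG or CACCTG at most 50 bp from the summit with both strands searched, against 14.5% of 7956 promoter peaks. At most 100 bp from the summit, 9 of the 40 (22.5%) held one, against 25.4% of promoter peaks, so the gap was small in the longer window. CACGTG lay in 2 of the 40 (5.0%) and in 5.0% of promoter peaks, the ETS-type CCGGAAGT in 4 (10%) and 6.91%, and the GC box GGGCGG in 18 (45%) and 33.4%. The CRE TGACGTCA was in none of the 40, against 1.96% of promoter peaks, the NRF1 motif in none, against 1.01%, and the YY1 motif in none, against 2.07%. Any CANNTG, of which the main E-boxes are a part, was in 8 (20%) against 29.6%, and CCAAT was in 3 (7.5%) against 10.8%.

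In the RefSeq promoter windows of GRCm38.p6 (mm10), which run from 250 bases before to 50 after a start, 41 of the 53 genes and 16457 of all genes were represented by the start nearest to their annotated 5' end. CAGCTG or CACCTG was in 5 of the 41 (12.2%), against 31.5% of all windows and 27.6% of the 7777 windows rich in CpG (a GC content of at least 50% and an observed to expected CpG ratio of at least 0.6), a class that holds 33 of the 41. CACGTG, the E-box of MYC, MAX and USF proteins, was in 8 of the 41 (19.5%), against 7.97% of all windows and 11.7% of the CpG-rich ones. Those 8 were Eif1b, Eif3a, Eif3f, Eif3k, Eif4a1, Eif4g1, Eif4h and Eif5a2, the last without an optimal peak. CCGGAAGT was in 7 (17.1%), against 5.44% of all windows and 9.18% of the CpG-rich ones. GGGCGG was in 29 (70.7%), above the 47.3% of all windows but below the 76.9% of the CpG-rich ones. The next distances run to the middle of the E-box, while the mm9 distances given earlier run to its nearest base. In Eif4g1 one CACGTG lay 5 bp from the summit of the strongest peak, and in Eif2ak3 a CAGGTG lay 8 bp from it. In Eif3f the CACGTG was 64 bp away. These 3 windows were chosen after their values were seen and show 30 bases each on mm10, from RefSeq, with the E-box in capitals.
Eif4g1, chr16:20672730-20672759, plus strand: ctctgcgccggtCACGTGgggcgctggctg
Eif2ak3, chr6:70844535-70844564, plus strand: cgatgtctgcacaaggctgtcactCAGGTG
Eif3f, chr7:108934335-108934364, plus strand: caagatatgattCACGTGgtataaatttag
A match to these letters describes the sequence and is not evidence of a bound site.

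Of the 41 windows, 33 (80.5%) were rich in CpG, against 47.3% of all windows. Among these 33 genes 31 had a summit, where 74.3% of all genes with such a window did. Among the other 8 genes, 7 had one, where 26.7% of the other genes did. The 8 were Eif5a, Eif3f, Eif4e, Eif3b, Eif2ak1, Eif3k, Eif2b5 and Eif4a3l1, and Eif4a3l1 was the one with no summit. The genes without a window are left out of these counts. They include Eif3j2, Eif4e1b, Eif4e3, Eif4ebp3 and Eif4g2, all with no optimal summit. The shares with a summit among the 41 genes therefore run higher than over all 53. Another gene's 5' end on the opposite strand lay within 1 kb of 12 of the 53 genes (22.6%), against 11.2% of all genes. Of the 12, 11 had a summit, where 86.1% of all genes in that position did (1957 of 2273), and of the other 41, 34 had one. Over all genes, with or without such a neighbour, 9928 of 20364 had a summit. The median strongest signal was 91.9 at those 11 and 77 at the other 34. Medians over all genes with and without such a neighbour are not given here, so the difference cannot be called particular to these genes. The part of CpG content and of neighbouring genes in the counts was not tested.

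Other genes of protein synthesis also carried peaks often. Of 24 genes listed as controlling or assisting initiation, 21 had a summit, with a median strongest signal of 76.5. The list holds genes of mTORC1 signalling and the integrated stress response, but also others such as Dhx29, Denr and Pabpc1. Atf4, the transcription factor whose translation rises when eIF2 is phosphorylated, had 210, Rps6kb1, a kinase downstream of mTORC1, had 143, and Rptor, a subunit of mTORC1, had 125. Larp1, Paip1 and Pabpc1, whose products bind mRNA leaders or poly(A) or the poly(A)-binding protein, had none within 5 kb. Of 13 elongation and termination factor genes, 12 had a summit, among them Eef2, the ribosomal translocase gene, with 199, and Eef1a1, which delivers aminoacyl-tRNA, with 132. Their median was 111. All 22 genes for cytosolic aminoacyl-tRNA synthetases and their scaffold proteins had one, with a median of 67.7.

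The initiation factor genes, at 45 of 53 with a median of 77.7, had nearly the median signal of the proteasome subunit genes, of which 39 of 42 had a summit with a median of 77. The cytosolic ribosomal protein genes had a summit at 79 of 82 and a median strongest signal of 135. Of the initiation factor genes with a summit 26.7% reached a signal of 100, against 70.9% of the ribosomal protein genes with one. Whether these lists differ was not tested.

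**Figure D4:**
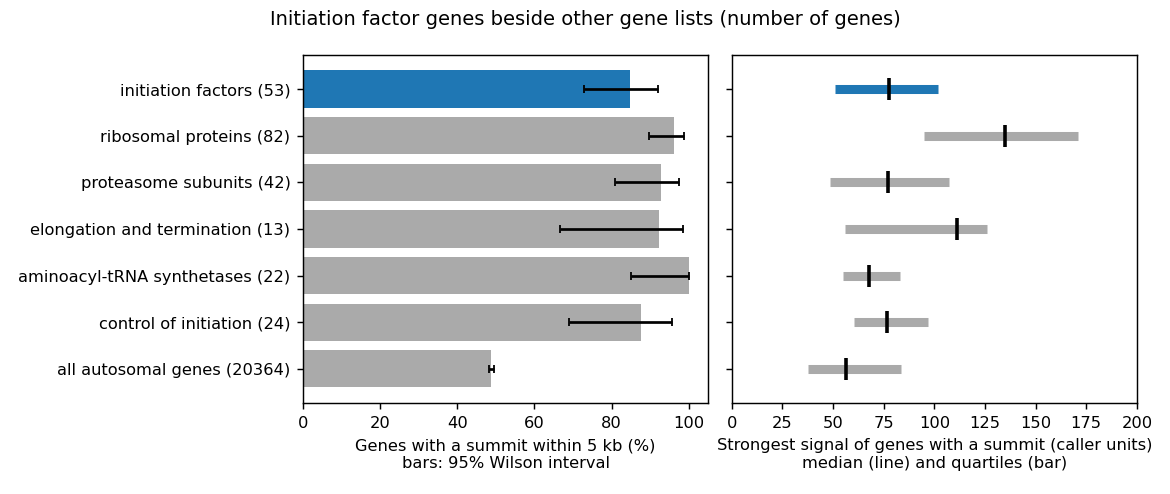
Left, share of genes with an optimal summit within 5 kb of the 5' end (horizontal axis, percent, with 95% Wilson intervals for counting error); right, strongest signal of the genes with a summit (caller units, median and quartiles), for initiation factors, 5 other gene lists and all autosomal protein-coding genes, with the number of genes in brackets. Initiation factors stand at 84.9% and a median of 77.7, and all genes at 48.8% and 56.3.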

How the data were processed

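Peak lists of TCF12 ChIP-seq from 2 biological replicates of CH12.LX were used as deposited by the authors. Per the deposited file descriptions, relaxed lists (300000 peaks each, for replicate 1, replicate 2 and the pooled data) were derived from alignments on mm10 with a control alignment, the optimal (35848) and conservative (35530) lists came from these through IDR, and a list of 23575 peaks on mm9 came from both alignments. The aligner and the peak caller: not given in the sources used here. The signal in the deposited lists is the caller's own value with no stated scaling, and the score of the authors' IDR lists is the scaled IDR score, of which 830 was taken as an IDR of 0.01. Signals of separate lists were not set against each other, except those of the 2 replicates, given side by side. Depth is unknown.

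Gene spans came from RefSeq (GRCm38.p6). Strand came from the RefSeq promoter table for 16457 genes and by name from GENCODE vM1 for 3907, and 20364 of 20665 autosomal protein-coding genes were used. mm9 sequence and 5' ends came from NCBIM37 and GENCODE vM1, and no coordinate was converted. A replicate's value at a peak is the strongest relaxed peak overlapping it by at least 1 bp, so neighbouring summits can share a value. Computation used Python 3.11.15 with pandas 2.3.3 and scipy 1.17.1, and distances were tested on simulated summits. No p-value was computed, because 1 group of 2 replicates has no counterpart. The members and lists were chosen with earlier results of these data known. By the rule for named genes, values in full are given for the 12 strongest genes and for all with at least 2 summits, and sequences for the 4 strongest and for up to 4 with CAGCTG or CACCTG at the summit. Of 26 genes listed as controlling or assisting initiation 24 were used, and 13 of 14 elongation and termination genes. Alternatives were other peak lists, a stricter score, each replicate alone, merged peaks, other distances and other windows.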

Additional observations from a re-analysis of the deposited data

How the results depend on the processing

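The share of initiation factor genes with a summit within 5 kb, 84.9%, ranged from 81.1% to 86.8% over these settings: the conservative list, a score of at least 830, each replicate alone, the pooled relaxed list, merged peaks, distances of 2 and 10 kb, the mm9 list and factor subunits only. The share of all genes, 48.8%, ranged from 41.4% with the mm9 list to 54.0% within 10 kb, and was not counted for factor subunits only. When any RefSeq start of a gene counted, 38 of the 41 initiation factor genes in the promoter table (92.7%) had a summit. By the annotated 5' end alone the number among these 41 was also 38. The rise from 84.9% thus comes with leaving out the genes absent from that table. That alternative was added after seeing the data, and no share over all genes is given for it. On mm9 the initiation factor share was 81.1%, against 41.4% of all genes. Eif4e3 and Eif4g2 were gained there, and Eif1ad, Eif2ak3, Eif2s1 and Eif4enif1 lost. The mm9 5' end of Eif4e3 is annotated at another place. The share within 1 kb ranged from 79.2% to 81.1%. The median share of stronger peaks, 15.3%, was 22.5% at a score of at least 830, where weaker peaks are gone from the list, and 11.8% to 20.7% in single replicates. The median distance, 67 bp, was 63.5 bp with the conservative list, the stricter score and the pooled relaxed list, and 59.0 to 60.5 bp in single replicates. With windows of 100 bp, 22.5% of genes had CAGCTG or CACCTG near the mm9 summit, against 25.4% of promoter peaks, in place of 7.5% against 14.5% with 50 bp, so the gap to promoter peaks depends on the window. The median ratio between replicates over all member peaks was 1.40, and 1.39 with a reciprocal overlap of 50%. No paired analysis was possible because there is 1 group and no test.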
